A study of Mus musculus with 4 samples.

Results

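The 46 genes described here are interferon-stimulated genes, chosen by name as a module, and all 46 were found in the deposited table of 22691 genes. Polyadenylated RNA was sequenced from embryonic fibroblasts of female mouse fetuses at stage E13.5. The 2 WT libraries had the genotype Smchd1 +/+; Xist deltaA/+ and the 2 MD1 libraries had Smchd1 MD1/MD1; Xist deltaA/+, so both groups shared the Xist deltaA mutation. The mothers were C57BL6/J and the fathers were F1 animals of JF1 and C57BL6/J. SmcHD1 is a chromatin protein of the inactive X, and MD1 is a mutant allele of its gene. Total expression was deposited as FPKM (fragments per kilobase of transcript, scaled to library size), with 1 mean per group. No spread could therefore be given for the 46 genes, no test of them was possible, and 1 library could set a group mean. The labels name no separate fetuses for the replicates. The fathers passed on JF1 autosomal alleles in blocks, so differences in such alleles or in culture cannot be told apart from the Smchd1 genotype. As a check of the labels, Smchd1 was at 14.7 FPKM in the WT mean and at 1.94 (13.1%) in that of MD1.

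Interferons are secreted proteins that a cell makes when its sensors detect viral nucleic acid. They bind receptors whose kinases JAK1, TYK2 and JAK2 phosphorylate STAT proteins. Complexes that hold STAT2 and IRF9 then bind the interferon-stimulated response element (ISRE) in target promoters, and a second element there is the gamma-activated site (GAS). The induced genes encode proteins that block viral RNA and budding, sense more nucleic acid, transcribe further target genes and raise antigen display. Fibroblasts respond to interferon and also keep many of these genes at a low level without it.

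The 46 genes lay on 14 autosomes and none on X, so none of them had allele-specific reads. Their levels were low in both groups. The median was 1.13 FPKM in WT and 2.62 in MD1, against 5.11 and 5.02 over the 16810 genes above 0 in both groups. In WT 22 of the 46 genes were under 1 FPKM, and in MD1 12 were. The highest was B2m at 682.2 and 659.1 FPKM, and 5 genes were under 0.2 FPKM in both groups.

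More of the 46 genes had a higher mean in MD1 than in WT. The value was higher for 36 and lower for 10, while 47.5% of all 16810 genes were higher. The median log2 ratio, with 1 added to each FPKM and MD1 divided by WT, was 0.37 for the 46 genes and -0.0056 for all genes. On this scale 7 of the 46 genes were at least 2-fold higher, against 0.976% of all genes, and 0 were at least 2-fold lower, against 1.95%. These 7 were Isg15, Usp18, Bst2, Ifi27, Ifit1, Rtp4 and Gbp2. Adding 1 to the FPKM shrinks the ratio of genes under a few FPKM, which most of the 46 were. By the plain FPKM ratio 23 of 46 were at least 2-fold higher, against 6.13% of all genes, and 2 (Mx1 and Psmb9) at least 2-fold lower, against 11.4%. Parp9 was the lowest of the 23, at 2.10 times WT, and Tap2 and Trim25 lay just under the bound at 1.89 times each. The 23 include Oas2, Oas3, Mx2 and Rsad2, which like Mx1 were under 0.2 FPKM in both groups, so their ratios are uncertain.

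The plain ratio was set against level, since low genes vary more. At a mean under 1 FPKM, 10 of 15 genes of the module were at least 2-fold higher, against 13.8% of all genes at that level, and 2 were at least 2-fold lower, against 25.9%. From 1 to under 5 FPKM it was 10 of 17, against 5.52%, and at 5 or more it was 3 of 14, against 1.44%. In these 2 classes 0 genes of the module were at least 2-fold lower, against 10.3% and 2.52% of all genes. The class is set by the mean of both groups, so MD1 values help to place a gene. Of the module 8 genes reached a mean of 1 only through MD1, and 7 of these 8 are among the 10 counted as 2-fold higher from 1 to under 5 FPKM. The 3 genes 2-fold higher in the top class were Isg15, Bst2 and Ifi27. The median plain ratio was 2.70, 2.48 and 1.24 from the lowest to the highest class, and 0.849, 0.956 and 1.02 for all genes. Most of the module's abundant genes were thus close to their WT level.

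**Figure D1:**
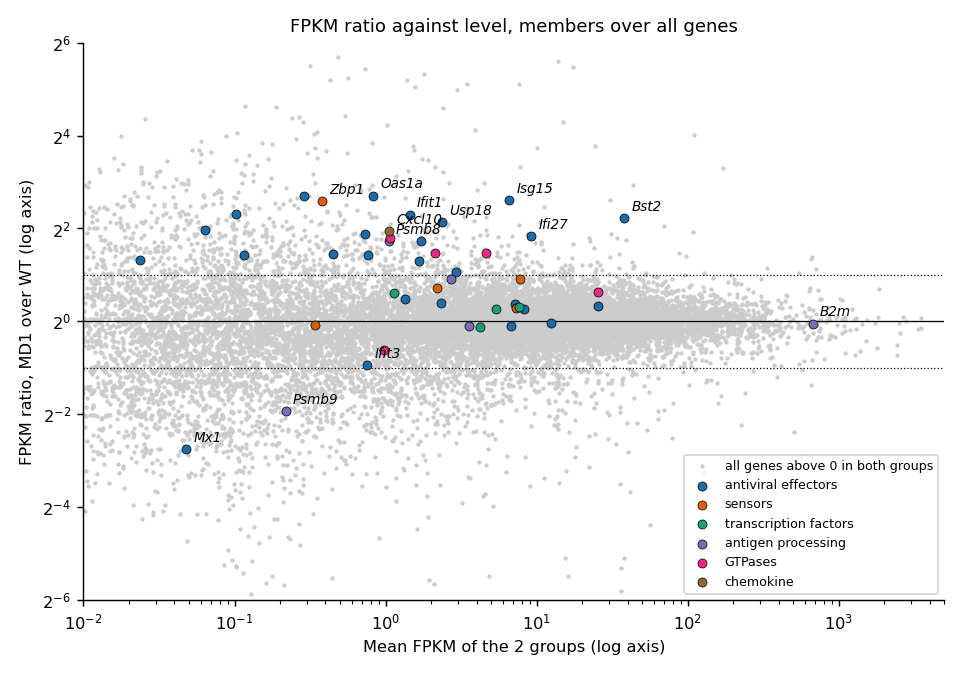
FPKM ratio of MD1 over WT (y axis, log scale) against the mean FPKM of both groups (x axis, log scale) for the 46 genes, coloured by function, over all genes above 0 in both groups in grey; 460 of these genes lie outside the axes. Dotted lines mark 2-fold differences: 23 genes of the module lie on or above the upper line, and Psmb9 and Mx1 lie below the lower one.

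Of the 26 antiviral effectors 22 were higher in MD1 and 4 were lower, while 47.5% of all genes were higher. By the plain ratio 17 were at least 2-fold higher, against 6.13% of all genes. That share was 13.8% among genes with a mean under 1 FPKM, and 15 of the 26 effectors had a mean of 1 or more. The median log2 ratio of the effectors was 0.37. Isg15, a ubiquitin-like protein that is conjugated to other proteins, had 1.86 FPKM in WT and 11.3 in MD1, a ratio of 6.09. Usp18, the protease that removes ISG15 and also damps the interferon receptor, had 0.878 and 3.86 FPKM, a ratio of 4.40. The modifier and its protease thus differed in the same direction. Bst2 (tetherin), which holds budding virions at the cell surface, had 13.4 and 62.7 FPKM, a ratio of 4.69. It was the most abundant of the genes with a difference of 2-fold or more. Ifi27, which encodes a small mitochondrial and nuclear envelope protein, had 4.05 and 14.4 FPKM, and overlaps its relative Ifi27l2a on the other strand (listed at 0 in WT, 0.802 in MD1). The labels name a stranded kit but not whether the counting used strand.

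Promoter sequence is shown for 6 genes of the module because complexes that hold STAT2 and IRF9 bind the ISRE in interferon target promoters. Binding was not measured here. All 6 are among the 17 genes with an ISRE match, and 18 of the 35 genes with a listed window had none. Each run holds the 250 bases before the RefSeq start in GRCm38.p6, read 5′ to 3′ on the strand of the gene, and matches on either strand to the ISRE core, GAAA and GAAA with any 2 bases between, are in capitals. By the plain FPKM ratio the first 4 genes are at least 4-fold higher in MD1, Gbp2 is 2.78 times WT, and Ifit3 is not higher.
Isg15 (chr4:156200819-156201068, - strand): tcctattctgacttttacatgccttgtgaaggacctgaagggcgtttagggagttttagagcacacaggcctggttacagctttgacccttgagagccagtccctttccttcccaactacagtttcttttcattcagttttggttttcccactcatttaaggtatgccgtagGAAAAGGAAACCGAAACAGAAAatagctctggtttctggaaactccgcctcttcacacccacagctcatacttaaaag
Bst2 (chr8:71537473-71537722, - strand): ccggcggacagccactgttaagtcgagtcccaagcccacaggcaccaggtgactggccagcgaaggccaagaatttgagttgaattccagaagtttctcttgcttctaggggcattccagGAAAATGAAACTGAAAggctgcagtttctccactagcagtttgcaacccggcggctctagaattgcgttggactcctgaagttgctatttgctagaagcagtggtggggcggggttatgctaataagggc
Oas1a (chr5:120907526-120907775, - strand): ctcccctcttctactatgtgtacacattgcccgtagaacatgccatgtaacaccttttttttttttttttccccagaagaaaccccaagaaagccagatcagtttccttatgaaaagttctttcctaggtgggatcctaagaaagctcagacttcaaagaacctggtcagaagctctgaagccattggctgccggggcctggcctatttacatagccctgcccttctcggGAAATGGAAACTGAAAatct
Ifit1 (chr19:34640639-34640888, + strand): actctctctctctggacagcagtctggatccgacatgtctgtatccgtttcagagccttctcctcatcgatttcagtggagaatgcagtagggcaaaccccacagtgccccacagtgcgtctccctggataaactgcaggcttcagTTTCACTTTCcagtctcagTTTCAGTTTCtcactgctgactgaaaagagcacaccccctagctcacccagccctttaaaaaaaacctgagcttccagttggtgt
Gbp2 (chr3:142620413-142620662, + strand): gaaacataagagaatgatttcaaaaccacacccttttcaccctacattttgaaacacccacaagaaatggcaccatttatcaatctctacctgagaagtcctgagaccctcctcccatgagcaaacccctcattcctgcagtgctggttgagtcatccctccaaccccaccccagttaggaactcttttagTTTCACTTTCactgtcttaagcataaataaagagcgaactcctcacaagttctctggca
Ifit3 (chr19:34583279-34583528, + strand): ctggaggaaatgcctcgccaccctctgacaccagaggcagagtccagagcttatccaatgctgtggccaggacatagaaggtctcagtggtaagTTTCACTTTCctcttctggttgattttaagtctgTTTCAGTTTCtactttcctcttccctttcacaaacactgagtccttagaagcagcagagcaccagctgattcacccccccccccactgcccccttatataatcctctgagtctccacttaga
Isg15 had 3 overlapping matches, from 78 to 57 bases before the start. Bst2 and Oas1a had 2 overlapping matches each, at 130 to 115 and at 20 to 5 bases before the start. Ifit1 had 2 separate matches on the other strand, at 104 to 95 and 85 to 76 bases, and Ifit3 had 2 of the same kind, at 156 to 147 and 122 to 113 bases. Ifit1 and Ifit3 therefore carried the same 2 matched sequences, TTTCACTTTC and TTTCAGTTTC, with different values in MD1.

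Promoter windows of 300 bases (250 before and 50 after the start) were listed for 35 of the 46 genes. Of these, 17 held the ISRE core on either strand, against 3.99% of all 27025 genes with a window. By window it was 17 of 41, against 3.44% of 32851. The GAS core TTCNNNGAA, which reads the same on both strands, was in 9 of the 35 genes, against 9.55% of all genes. Of the 17 genes with an ISRE match, 10 were at least 2-fold higher by the plain ratio, with a median of 2.78. Of the 18 without one, 5 were, with a median of 1.30. Over all genes with a ratio 6.13% were, and these sets were not matched in level. Genes with a match and a ratio near 1 included B2m, Eif2ak2, Stat2 and Ddx58, and genes without a match in this window included Oasl1, at 6.50 times WT. A match in a window is a description and not a bound site. Dhx58, Ifi27, Mx1, Mx2, Oas2, Parp14, Parp9, Rtp4, Tap2, Usp18 and Zbp1 had no listed window. All of these but Dhx58, Mx1 and Tap2 were at least 2-fold higher by the plain ratio. The genes read with and without a match therefore leave out many of the module's higher genes.

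The oligoadenylate synthetases, which make the second messenger that activates RNase L, and their relatives all had higher values in MD1 but were low in level. Oas1a had 0.220 FPKM in WT and 1.44 in MD1 (6.53 times). Oasl1 had 0.0771 and 0.502 (6.50 times), Oasl2 0.311 and 1.15 (3.70 times) and Oas3 0.0342 and 0.170 (4.98 times). Oas2 had 0.0136 and 0.0340 FPKM, a level too low for its ratio to be read. Oas3 was also under 0.2 FPKM in both groups, so its ratio is uncertain. In the Oas cluster on chromosome 5 (121180342 to 121357534, mm9), Oas1b, Oas1c and Oas1g, which are not of the module, also had higher values in MD1, at 0.614 against 0.189, 0.332 against 0.139 and 0.185 against 0.0482 FPKM. Of the 50-base runs of the longest Oas1a transcript 57.6% also occur in transcripts of other genes, mainly Oas1g and Oas1b, so the split of reads among these genes is uncertain.

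The Ifit family, whose proteins bind viral RNA ends, was not alike across its members. Ifit1 had 0.488 FPKM in WT and 2.40 in MD1, a ratio of 4.92. Ifit2, the most abundant, had 6.99 and 6.51 FPKM, and Ifit3 had 0.992 and 0.515. All 3 lie within 99.3 kb on chromosome 19 (34625184 to 34724499, mm9). Of the 50-base runs of Ifit3 51.2% also occur in Ifit3b, its near copy between Ifit3 and Ifit1, which went the other way with 0.300 FPKM in WT and 0.655 in MD1. The summed value of Ifit3 and Ifit3b was 1.29 and 1.17 FPKM, 0.905 times WT. The lower value of Ifit3 alone is therefore uncertain, while for Ifit1 7.13% of runs were shared with other genes.

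**Figure D2:**
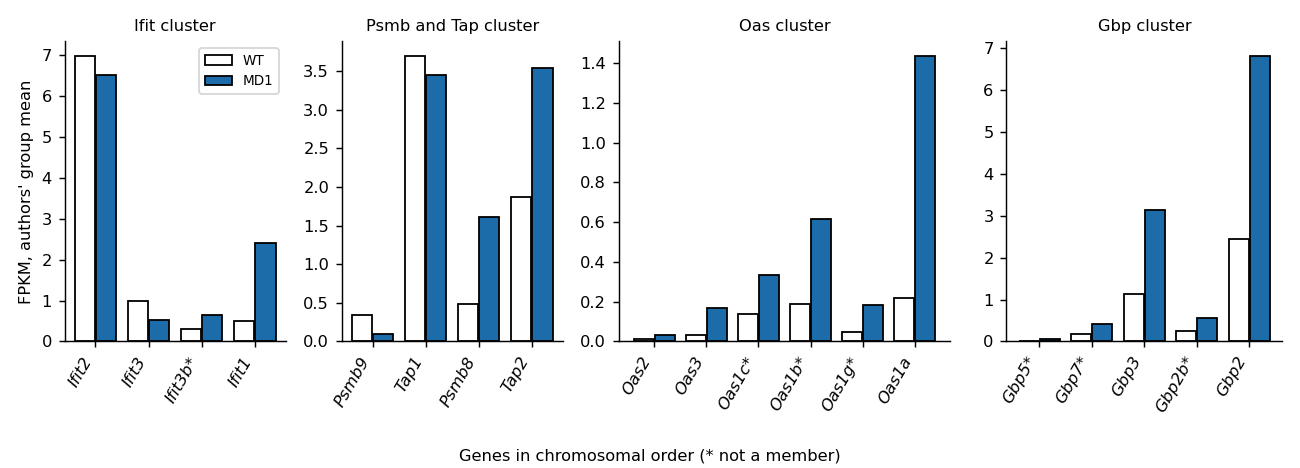
FPKM (authors' group mean, linear axis from 0) in WT (white bars) and MD1 (blue bars) of genes in 4 clusters, in chromosomal order; bars have no error because 1 mean per group was deposited, and genes with an asterisk are not of the module. Ifit1 is higher in MD1 while Ifit2 is not, Psmb8 and Psmb9 differ in opposite directions, and each plotted gene of the Oas and Gbp clusters is higher in MD1.

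Among the other RNA-directed effectors the picture was mixed. Mx1 and Mx2, dynamin-like GTPases that block viral replication, and Rsad2 (viperin), a radical SAM enzyme, stayed under 0.2 FPKM in both groups. Their values in WT and MD1 were 0.0833 and 0.0124, 0.0257 and 0.101, and 0.0627 and 0.169 FPKM. The C57BL/6 allele of Mx1 is known to lack coding exons. Eif2ak2 (PKR), the RNA-activated kinase that stops translation, had 12.5 and 12.3 FPKM. Adar, which deaminates adenosine in double-stranded RNA, had 7.54 and 9.04, and Samd9l, a restriction factor, 1.999 and 2.62 FPKM. These last 3 genes, all with a clear level in WT, differed by at most 1.31 times.

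Parp9, Dtx3l and Parp14 were higher in MD1. PARP9 and the ubiquitin ligase DTX3L act as a pair, and PARP14 is a related ADP-ribosyltransferase. Parp9 had 1.89 and 3.98 FPKM, Dtx3l 0.952 and 2.36, and Parp14 0.241 and 0.658, so the ratios were 2.10, 2.48 and 2.73. All 3 lie within 139.7 kb on chromosome 16 (35832964 to 35972707, mm9), and Parp9 and Dtx3l overlap head to head by 558 bases on opposite strands. Rtp4 was 3.32 times WT (0.790 and 2.62 FPKM), with 13.6% of its 50-base runs shared with Gm45338, and Ifi44 2.69 times (0.412 and 1.11). Ifi35 (6.21 and 8.05), Xaf1 (1.13 and 1.57) and the secreted glycoprotein gene Lgals3bp (22.5 and 28.2 FPKM) were 1.25 to 1.39 times WT.

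Of the 5 sensors 4 had higher values in MD1. Zbp1, which binds Z-form nucleic acid and can start necroptosis, had 0.108 FPKM in WT and 0.650 in MD1 (6.02 times). Trim25, the ubiquitin ligase that activates RIG-I, had 5.38 and 10.2 FPKM (1.89 times). Ifih1 (MDA5) had 1.65 and 2.70, and Ddx58 (RIG-I) 6.54 and 7.96 FPKM. Dhx58 (LGP2), their regulator, had 0.350 and 0.333 FPKM. The median log2 ratio of these 5 genes was 0.48, with 1 of 5 at least 2-fold higher by the plain ratio, against 6.13% of all genes.

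The transcription factors of the pathway were close to their WT level. Irf9 had 6.79 FPKM in WT and 8.39 in MD1, and Stat2, its partner, 4.40 and 4.07. Irf1 had 4.87 and 5.88 FPKM. Irf7, which amplifies interferon gene transcription and is itself strongly inducible, had 0.900 and 1.37, a ratio of 1.52. None of the 4 differed by 2-fold on either scale, and the median log2 ratio was 0.25.

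**Figure D3:**
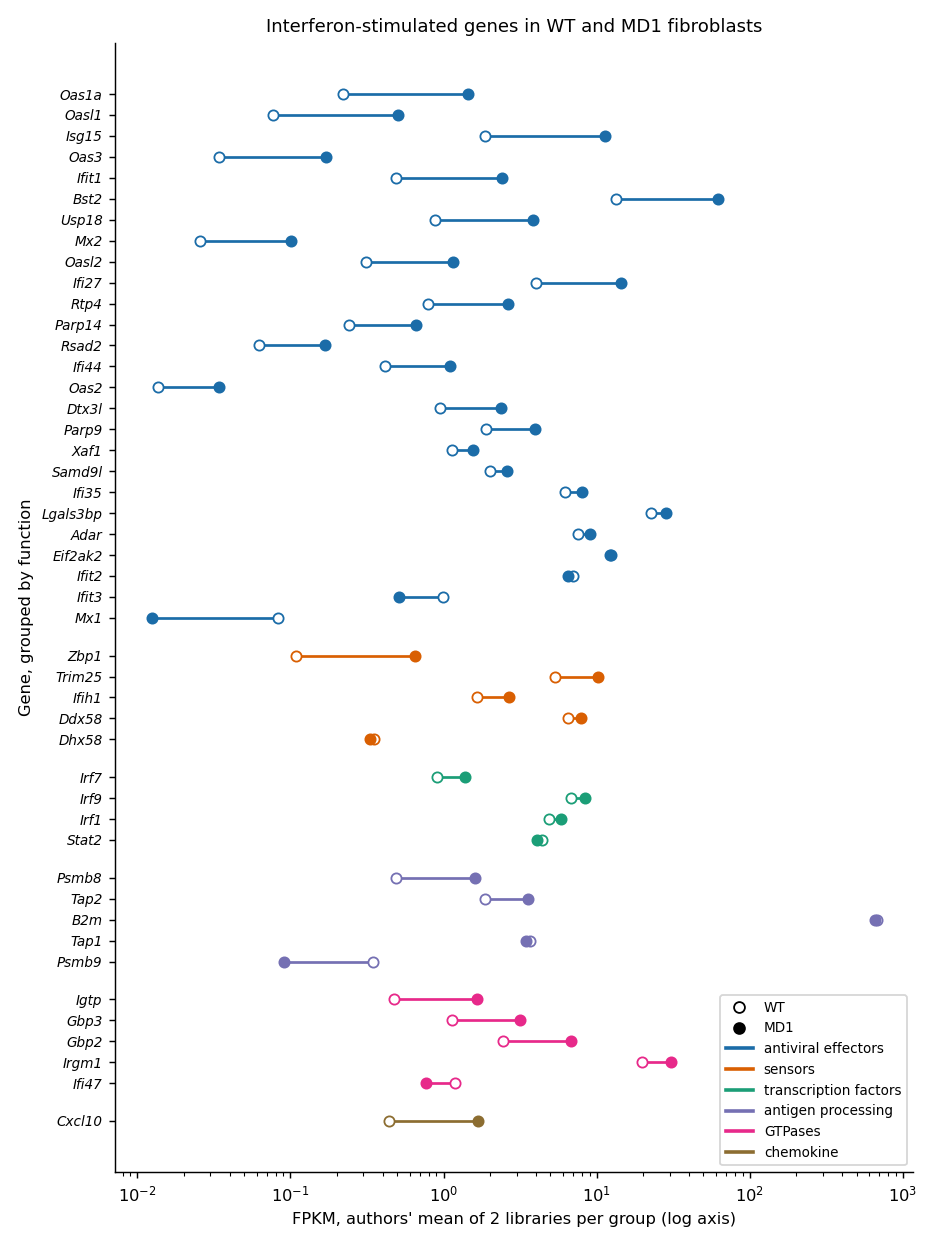
FPKM (authors' mean of 2 libraries, log axis) of the 46 genes in WT (open circles) and MD1 (filled circles), grouped by function and ordered within a group by the ratio; there are no error bars because 1 mean per group was given. Most lines run from a WT value on the left to a higher MD1 value, with the longest lines among antiviral effectors, while transcription factors have short ones.

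Of the 5 GTPases, which attack the vacuoles of intracellular pathogens, 4 were higher in MD1. Gbp2 had 2.45 and 6.82 FPKM and Gbp3 1.13 and 3.15, ratios of 2.78 and 2.79. Igtp (Irgm3) had 0.475 and 1.65 FPKM, a ratio of 3.47, with 12.3% of its 50-base runs shared, mainly with Irgm2. Irgm1, a regulator of the other immunity-related GTPases, had 19.7 and 30.8 FPKM. Ifi47 (Irg-47) was lower, at 1.18 and 0.772, and lies within the span of Olfr56 on the same strand (0.0149 and 0.0202 FPKM). The median log2 ratio of the group was 0.84, the largest of the 5 functional groups.

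The 5 antigen processing genes were split, 2 higher and 3 lower in MD1, with a median log2 ratio of -0.050. Psmb8 and Psmb9 encode catalytic subunits of the immunoproteasome, and Tap1 and Tap2 the subunits of the peptide transporter. Psmb8 had 0.488 FPKM in WT and 1.61 in MD1, 3.30 times WT, while Psmb9 had 0.346 and 0.0908, 0.262 times WT. Tap1 had 3.70 and 3.45, and Tap2 1.87 and 3.54 FPKM. The 4 genes lie side by side in the major histocompatibility complex on chromosome 17 (34319044 to 34353266, mm9), in the order Psmb9, Tap1, Psmb8 and Tap2. B2m, the light chain of class I molecules, was 0.966 times WT. The class I heavy chain genes H2-K1 and H2-D1, whose products pair with B2m, were higher. H2-K1 had 7.87 and 15.6 FPKM, and H2-D1 26.0 and 48.2.

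Psmb9 and Tap1 are read in opposite directions from a shared promoter, which is shown because neither was higher in MD1, unlike Psmb8 nearby. Tap1 was close to its WT level (0.934 times), and Psmb9 was low in both groups (0.346 and 0.0908 FPKM), so its ratio is uncertain. Their starts enclose 225 bases in GRCm38.p6, printed 5′ to 3′ on the strand of Tap1, and the stretch held no match to the ISRE core, so no letters are in capitals. The listed window of Psmb8, 3.30 times WT, held none either.
Psmb9 and Tap1 (chr17:34187331-34187555, + strand): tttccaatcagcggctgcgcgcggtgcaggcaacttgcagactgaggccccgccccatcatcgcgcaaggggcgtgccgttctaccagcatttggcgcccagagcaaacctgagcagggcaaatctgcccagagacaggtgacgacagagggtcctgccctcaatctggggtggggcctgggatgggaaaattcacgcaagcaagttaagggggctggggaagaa
Smchd1 lies on the same chromosome (17, 71693834 to 71824683, mm9), as does Eif2ak2 (79251890 to 79281912). For these genes alleles linked to Smchd1 cannot be told apart from the effect of its genotype, and histocompatibility genes differ in sequence between strains. Cxcl10, the chemokine of the module that attracts T cells, had 0.438 FPKM in WT and 1.68 in MD1, a ratio of 3.85.

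The wider pathway was described from lists of genes. No interferon gene had a clear value in either group. Of 19 listed ligand genes 15 were at 0 in both groups, including Ifnb1 and Ifng, and the highest value was 0.123 FPKM, for Ifnz in MD1 (0.0409 in WT). Ifne and Ifna6 had 0.0926 and 0.0175 FPKM in WT and were listed at 0 in MD1, and Ifnab had 0.0263 in MD1 and was listed at 0 in WT. A listed 0 does not show that a gene was silent.

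Receptor and JAK-STAT genes were close to equal between the groups. Of 15 genes 9 were higher and 6 lower, all within 1.5-fold, with a median log2 ratio of 0.042. The highest ratios were those of the feedback inhibitor genes Socs3 (5.62 and 8.31 FPKM) and Socs1 (3.38 and 4.57) and the phosphatase gene Ptpn2 (21.0 and 28.0). The lowest were those of Tyk2 (5.54 and 3.88), Stat3 (45.7 and 33.9) and Ifnar2 (32.4 and 29.3). Ifnar1, the partner of Ifnar2, had 11.7 and 13.1 FPKM. The median over 24 nucleic acid sensing and IRF activation genes was 0.045, with 13 higher and 11 lower. There Mb21d1 (cGAS), the sensor of cytosolic DNA, had 0.741 and 2.31 FPKM, Ifi204 1.43 and 2.78, and the RNase H2 subunit gene Rnaseh2a 10.8 and 15.2. The lowest were Unc93b1, which escorts Toll-like receptors (4.86 and 2.75), the adaptor gene Ticam1 (9.14 and 7.24) and Irf3 (14.2 and 11.4).

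A further list held other interferon-induced genes. Of its 48 listed genes 44 had a ratio, 33 of these were higher and 11 lower, and the median log2 ratio was 0.22. By the plain ratio 16 of the 44 reached 2-fold in the higher direction, against 6.13% of all genes, and 2 in the lower, against 11.4%. Of the 25 with a mean of 1 FPKM or more, 4 were at least 2-fold higher and 1 lower by the plain ratio. Among all 11399 genes at that level, 283 were higher and 514 lower by that bound. Of the 4 higher ones, Ccl5 and Trim30a were under 1 FPKM in WT and passed this mean only through MD1. The highest were the T-cell chemokine gene Ccl5 (0.424 and 7.39 FPKM), Mnda (2.40 and 6.20) and Trim30a (0.403 and 1.72). The lowest were the nonclassical class I gene H2-T23 (6.71 and 3.10), Ifitm1 (3.96 and 2.28) and Tor3a (4.71 and 3.62). Targets of NF-kB, the factor that acts beside IRF3 in antiviral induction and drives inflammatory genes, had a larger median of 1.13 over 19 genes. This median is on the log2 scale with 1 added to each FPKM, where that of the module was 0.37. By the plain ratio the medians were closer, at 2.32 for NF-kB targets and 1.995 for the module. At a mean of 1 FPKM or more, the log2 medians were 1.15 and 0.62. Of the module 8 genes passed that mean only through MD1, as did the NF-kB targets Cxcl1 and Cxcl2. These 2 medians are therefore raised in part by the filter. Of the 19 NF-kB targets 10 were at least 2-fold higher on either scale. In the module 23 of 46 were by the plain ratio and 7 with 1 added, and among all genes 6.13% and 0.976%. On the log2 scale Cxcl5, Cxcl1 and Ccl2 (31.4 and 309.7 FPKM) were the highest NF-kB targets. By the plain ratio Cxcl2 (40.2 times) and Il6 (13.3 times) also exceeded Ccl2 (9.87 times), and Icam1 was lower (7.54 and 3.14). Nfkbie (2.03 and 1.92) and Vcam1 (27.5 and 28.5) had the next lowest values among genes with a mean of 1 FPKM or more.

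**Figure D4:**
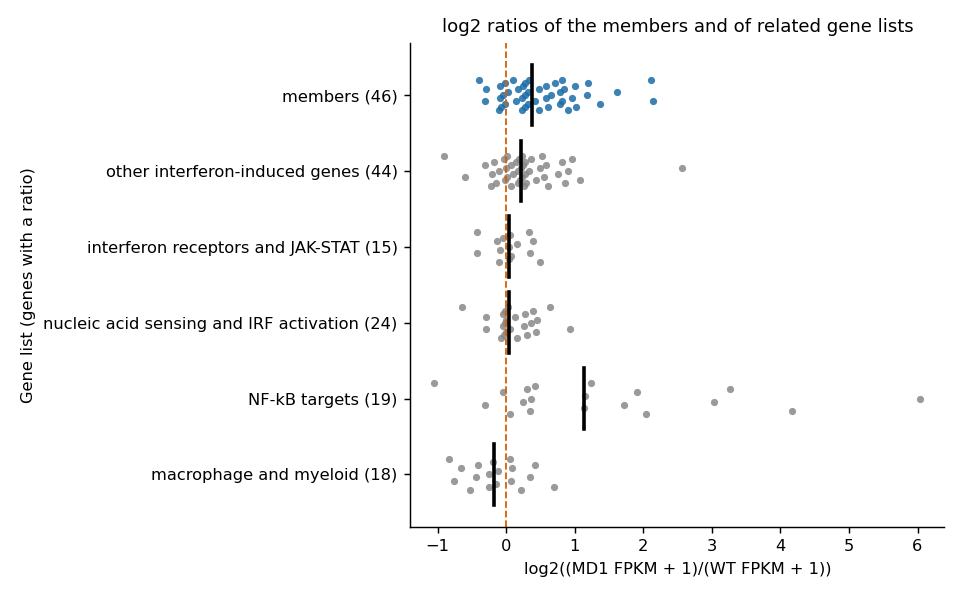
log2 of (FPKM + 1) in MD1 over WT (x axis) for each gene with a ratio in the module (blue) and in 5 related lists (grey), with black bars at the list medians and a dashed line at the median of all genes. The module's median is 0.37, those of the receptor and sensing lists are 0.042 and 0.045, NF-kB targets reach 1.13 and macrophage markers -0.17. By the plain FPKM ratio, not plotted, the medians of the module and of NF-kB targets are closer, at 1.995 and 2.32.

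Markers of other cells were read beside these values. All 12 fibroblast markers were above 1 FPKM in both groups, with 7 higher and 5 lower in MD1. The most abundant were Vim (2789.6 and 2802 FPKM), Col1a1 (1688 and 1081), Col1a2 (848.7 and 477.3), Fn1 (370.2 and 940.4) and S100a4 (579.0 and 631.8). Fn1 had the highest ratio of the list, 2.54, and Col3a1 the lowest, 0.416. The summed FPKM of the list was 6667 in WT and 6229 in MD1. Of 18 macrophage and myeloid markers 7 were higher and 11 lower in MD1, and their summed FPKM was 150.8 in WT and 127.7 in MD1. Lyz2 (99.4 and 86.8), Tyrobp (10.4 and 7.36) and Cd68 (9.21 and 9.82) were the most abundant, and without Lyz2 the sum was 51.3 and 40.96. The 14 lymphoid and dendritic markers were all under 1 FPKM in both groups, Cd3e, Cd8a, Flt3 and Ms4a1 at 0 in both, with sums of 1.46 and 0.815. Endothelial markers summed to 10.2 and 8.02 FPKM (3 of 8 higher), with Cldn5 at 0 in both, and epithelial markers to 21.1 and 25.1 (1 of 6 higher). The part of these marker differences in the module's values was not tested. In bulk RNA, fewer cells of a type and less RNA per cell cannot be told apart.

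Genes next to the module were closer to equal between the groups. The nearest expressed gene on each side of each member, within 1 Mb, gave 62 flanking genes at a median distance of 59.1 kb. Of these 33 were higher and 29 lower in MD1, with a median log2 ratio of 0.038. On that scale 1 was at least 2-fold higher, Gm6548 next to Eif2ak2 (9.96 and 34.6 FPKM). Of all genes with a mean of 1 FPKM or more, 1.39% were 2-fold higher and 2.81% lower, near these shares. The 3 flanking genes at least 2-fold lower were Rpl27 next to Ifi35 (70.2 and 1.78), H2-DMa next to Psmb9 (8.48 and 1.58) and Fap next to Ifih1 (3.003 and 0.890). Ribosomal protein genes such as Rpl27 have near-identical copies, so that value is uncertain. Flanking genes had to pass a mean of 1 FPKM and were not otherwise matched in level to the module. They include 3 genes of the lists above. These are the interferon-induced Irgm2 (1.95 times WT) and Ifi27l2b (1.77 times), and Ptpn11 of the receptor list (1.06 times).

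Only X-linked genes had values per library, and 20 X-linked genes of innate signalling were read there. Xist deltaA cannot silence its own chromosome, so the other X is inactivated. With the cross read mother first, that X is the paternal one, and reads with JF1 variants come from it. Allele-specific reads totalled 521768 to 806626 per library. Of the 20 genes 14 were informative (a JF1 share in all 4 libraries and a mean of 20 or more reads). The JF1 share rose in 14 of 14 with edgeR's quasi-likelihood test, with Benjamini-Hochberg adjustment over 391 genes, of which 74.4% rose. For each of the 14 genes the lower MD1 share exceeded the higher WT share. The median share was 0.0293% in WT and 40.7% in MD1.

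Toll-like receptors, which sense RNA in endosomes, and their relays were among them. Tlr7 had 0% of 49 reads in WT, which allows up to 6.12% (3 reads), and 40.5% and 24% in the MD1 libraries, of 62 reads in all (adjusted p = 0.00101, edgeR). Its total level was 0.525 FPKM in WT and 0.515 in MD1. Irak1, the kinase downstream of these receptors, had WT shares of 0.289% and 0%, and MD1 shares of 44.8% and 41.2% (adjusted p = 1.71e-106, edgeR), with 22.0 and 36.4 FPKM. The shares of Tab3, an adaptor of the TAK1 kinase, were 0% and 0.691% in WT and 23.6% and 22.6% in MD1 (adjusted p = 2.66e-41, edgeR). Xiap, an inhibitor of apoptosis, went from 0.268% ± 0.197 to 39.2% ± 0.408 (SD, n = 2; adjusted p = 3.08e-104, edgeR). The smallest gain was at the interleukin-13 receptor gene Il13ra1, from 0 of 1576 reads, which allows up to 0.190%, to 2.32% ± 0.365 (SD, n = 2; adjusted p = 2.30e-09, edgeR).

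The other informative genes spanned a wide range. Cybb, a subunit of the phagocyte oxidase, had 0% of 167 reads in WT and 7.82% ± 0.530 in MD1 (SD, n = 2; adjusted p = 0.000602, edgeR). Otud5, a deubiquitinase that limits interferon induction, reached 42.2% ± 4.01, Pqbp1, a cofactor of cGAS, 42.9% ± 3.43, and Nkrf, a repressor of NF-kB targets, 36.2% ± 1.00 (SD, n = 2). Usp9x, a deubiquitinase, reached 38.03% ± 1.15 and Ubl4 42.9% ± 0.0276 (SD, n = 2). The WT means of these 5 genes were at most 0.109%. Tlr13 also rose, from 0% of 116 reads in WT to 56.8%, and Ikbkg from 0.153% to 49.8%. Ddx3x already had a JF1 share of 24.7% in WT and rose to 43.3%. The total FPKM of 13 of the 14 genes was higher in MD1, with a median ratio of 1.64, and Tlr7 was the exception. Over all genes above 0 in both groups 47.5% were higher, with a median ratio of 0.983. The total FPKM of all X-linked genes was not summarized, so these values do not set the 14 genes apart from the rest of X. Whether these values bear on the module was not tested.

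**Figure D5:**
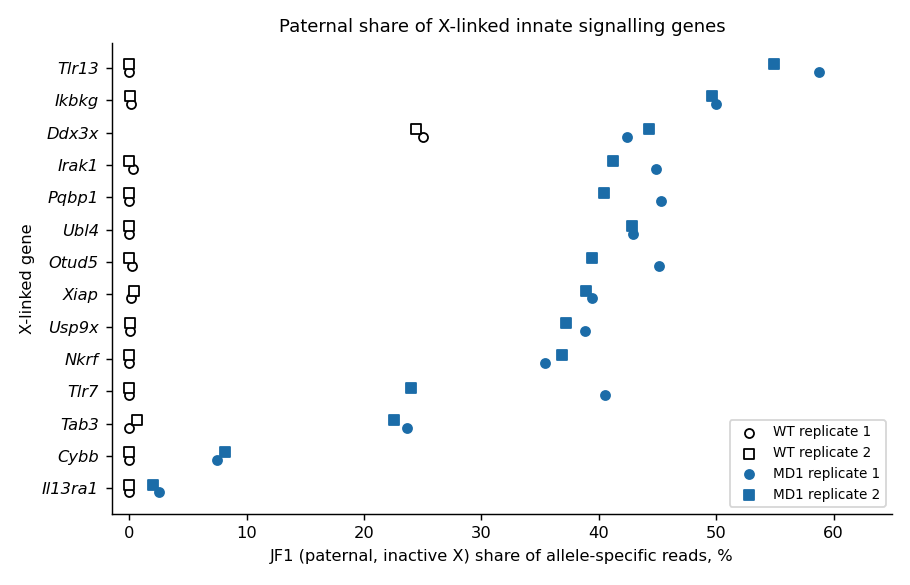
JF1 (paternal, inactive X) share of allele-specific reads in percent (x axis) for 14 X-linked genes of innate signalling, 1 point per library (open for WT, filled blue for MD1; circles replicate 1, squares replicate 2). Apart from Ddx3x, near 25% in WT, all WT points lie under 1%, and MD1 points range from 2.07% to 58.7%.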

How the data were processed

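RNA of 4 fibroblast libraries, 2 per group, was analysed from 1 table. The authors deposited total expression as FPKM, 1 mean per group, and for X-linked genes allele-specific reads as counts and the JF1 share as a fraction per library, per the file headers. Per the submitters' processing notes the build was mm9, and the tools named are Cuffdiff and Cufflinks 2.2.1. Which aligner, annotation and variant list were used is not given in the sources used here (also not whether counting used strand). Reads from JF1 alleles may map less well to the reference, which would lower JF1 values in both groups.

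Log2 ratios had 1 added to each FPKM and set MD1 over WT, for the 16810 genes above 0 in both groups, without a further filter, so that no gene entered through the group where it was high. The plain ratio was added after the data were seen. With 1 mean per group no test was possible. Gene starts were moved up by 1 to be 1-based. JF1 counts were share times reads, whole within 0.001. The test was edgeR 4.0.16 (R 4.3.3), a quasi-likelihood F-test with terms for library, allele and allele by genotype, two-sided, at an FDR of 0.05, tested on simulated data. With 2 replicates that may be technical, p-values measure only the spread between these libraries, and limits for 0 reads cover counting error only. Promoters came from RefSeq (GRCm38.p6), and shared runs from the longest coding GENCODE transcript per gene.

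The members, the lists and the rule for named genes were chosen with earlier results of these data known. All members were named, with the 3 highest and 3 lowest ratios per pathway list at a mean of 1 FPKM or more, interferon genes above 0, informative X-linked genes, the most abundant markers and those at 0, and flanking genes changed 2-fold. Ifnar1, H2-K1, H2-D1, Ifit3b and the other Oas genes were added as partners, and Fn1, S100a4, Col3a1, Cxcl2 and Il6 for their level or ratio, after their values were seen. Il28a, Il28b, Il28ra, Adgre1, Ifi27l1 and Gbp1 were not matched by symbol (Emr1 stands for Adgre1). Alternatives were other pseudocounts, filters, scalings and bounds, DESeq2 1.42.0, read minimums, a replicate term and each library left out.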

Additional observations from a re-analysis of the deposited data

How the results depend on the processing

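Shares of all genes under the same setting are in brackets. The 7 genes at least 2-fold higher (0.976%) became 20 with a pseudocount of 0.1 (2.72%) and 23 by the plain ratio (6.13%). They became 3 of 14 at a mean FPKM of 5 or more (1.11%) and 4 of 24 at a WT FPKM of 1 or more (0.999%). At a 1.5-fold bound they became 18 (4.43%) and at a 4-fold bound 2 (0.178%). Those at least 2-fold lower went from 0 (1.95%) to 1 with a pseudocount of 0.1 (5.47%) and 2 by the plain ratio (11.4%). The median log2 ratio of the 46 genes was 0.70 with a pseudocount of 0.1, 0.99 by the plain ratio and 0.62 at a mean FPKM of 1 or more, where 31 genes entered, 8 of them only through MD1. For antiviral effectors these 3 values were 1.02, 1.43 and 0.78, and for GTPases the first 2 were 1.40 and 1.48. At a mean FPKM of 5 or more the median of the 46 genes was 0.29, under the 0.37 without a filter. It was also 0.29 at a WT FPKM of 1 or more, a filter that no gene passes through MD1. For antiviral effectors the medians under these 2 filters were 0.32 and 0.31. The antigen processing median was reversed to 0.31 at a mean FPKM of 1 or more, where Psmb9 is left out, and was 0 with quantile normalization and -0.018 with equal summed FPKM. The other summaries kept their direction, and no gene at least 2-fold higher changed direction. Near 0, Dhx58 changed sign with quantile normalization and Eif2ak2 with equal summed FPKM. The 14 X-linked genes stayed called with DESeq2, with a replicate block (14), at 10 or more reads and with any 1 library left out (14 to 14), and 13 of 13 at 50 or more reads. With a library left out its group has 1 library, assumed to vary like the other group. Deviations of the JF1 share in libraries with the same replicate number had a correlation of 0.023 over 328 genes. Most WT shares of the 14 genes were near 0, so this value cannot show whether replicates were paired.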
